A study of Mus musculus with 6 samples.

Results

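The RNA levels of 9 genes for matrix proteins and for proteins of migrating cells, *Tnc*, *Fn1*, *Thbs1*, *Postn*, *Tgfbi*, *Inhba*, *Plau*, *Plaur* and *Itga5*, were followed in primary mouse keratinocytes with and without iASPP. The members were chosen by name, and all 9 were found among the 55367 gene names counted and among the 14916 that passed the filter on low counts. Keratinocytes of 3 batches from the skin of newborn pups of a mixed C57BL/6 and 129/Sv background were each split into an iASPP KO culture, given tamoxifen, and an iASPP WT culture, left without it, which gave 3 libraries per condition. All 6 cultures carried the genotype Ppp1r13l flox/flox;Cre+ERT, with loxP sites around an exon of *Ppp1r13l*, the gene for iASPP. The Cre-ERT recombinase was expressed from the *Rosa26* locus, which is active in nearly all cell types, so the deletion was not limited to keratinocytes. Since tamoxifen went to the KO cultures alone, the effects of the drug and of the deletion cannot be told apart. The labels do not say whether a batch was 1 animal or a pool. Adjusted p-values rest on how far the differences between KO and WT varied over these 3 batches, with spread shared across genes.

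Epidermal cells that leave a resting sheet to close a wound lay down a provisional matrix and loosen their hold on the basement membrane. Fibronectin (*Fn1*) is the main adhesive protein of that matrix. Tenascin-C (*Tnc*), thrombospondin-1 (*Thbs1*), periostin (*Postn*) and the TGF-β-induced protein (*Tgfbi*) are matricellular proteins, secreted molecules that modulate how cells hold the matrix rather than building its scaffold. *Inhba* encodes the βA chain of activin A, a ligand of the TGF-β family. Urokinase (*Plau*) turns plasminogen into plasmin at the cell surface when bound to its receptor (*Plaur*), and integrin α5 (*Itga5*) pairs with integrin β1 as a fibronectin receptor.

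Of the 9 genes, *Thbs1*, *Tnc*, *Tgfbi* and *Inhba* fell in the KO cultures and none rose. *Fn1* was 3.94-fold below its WT level in batch 1 but at a near equal level in batch 3, and did not pass the test. *Postn*, *Plau*, *Plaur* and *Itga5* did not pass it either. The 4 that fell, of 9, stood beside a background in which 4.12% of all tested genes were called in either direction 1.95% were called lower and 2.17% higher in KO (edgeR quasi-likelihood test with batch and condition, Benjamini-Hochberg adjusted p at most 0.05). The median log2 fold change (KO minus WT) of the members was -0.55 and that of all tested genes was 0.01. The members were named with earlier results of these data known, so the count describes them and does not test them as a group.

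The library totals ran from 20202517 to 25157117 counts. A count of 3 corresponded to 0.123 to 0.141 CPM (counts scaled to a common library size by TMM), and the lowest count of any member was 308. The targeted gene *Ppp1r13l* was lower in KO in every batch, at 14.3, 17.7 and 5.91 CPM against 32.7, 45.1 and 21 CPM in WT, with a log2 fold change of -1.45 (SE 0.18, adjusted p = 0.00296). It was still measured in KO, at counts of 320, 395 and 139, and its KO and WT values did not overlap. The 10 keratinocyte markers summed to 31066 to 38571 CPM in each library.

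Fibroblast markers separated the batches. The summed level of 19 markers was 82.4 CPM in KO and 91.6 CPM in WT of batch 1, 101 CPM in KO and 87.4 CPM in WT of batch 2, and 728 CPM in KO and 1050 CPM in WT of batch 3. In batch 3, 18 of the 19 were higher in both cultures than in any culture of the other batches. There 14 of the 19 were lower and 4 higher in KO than in WT. In batch 1, 10 were lower and 9 higher in KO, and in batch 2, 8 were lower and 9 higher. None was at 0 in all 6 libraries. Of 17 tested fibroblast markers, 2 were called lower in KO, none was called higher and 15 were not called. That is 11.8% called, beside 4.12% of all tested genes. The 2 were the collagens *Col1a2* and *Col3a1*, with log2 fold changes of -0.55 (adjusted p = 0.0428) and -0.87 (adjusted p = 0.0269). The summed levels of leukocyte markers were 25.5 to 76.0 CPM in KO and 14.2 to 58.1 CPM in WT. Those of endothelial markers were 4.21 to 21.5 CPM and of melanocyte markers 341 to 1088 CPM. Mural cell markers summed to 119, 106 and 161 CPM in KO of batches 1 to 3 and 141, 145 and 171 CPM in WT, lower in KO in every batch. Of 3 tested mural markers, 1 was called lower in KO, none was called higher and 2 were not called. That is 33.3% called, beside 4.12% of all tested genes. The part of mural cells in the level of any member was not tested. Fibroblasts are known to make *Tnc*, *Fn1*, *Postn* and *Tgfbi* too, which are the members with their highest batch mean in batch 3. Naming them does not set the other members apart as free of fibroblast RNA. The part of fibroblasts in the level of any member, *Thbs1* and *Inhba* included, was not tested. In bulk RNA, fewer cells of a type and less RNA per cell cannot be told apart.

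**Figure D1:**
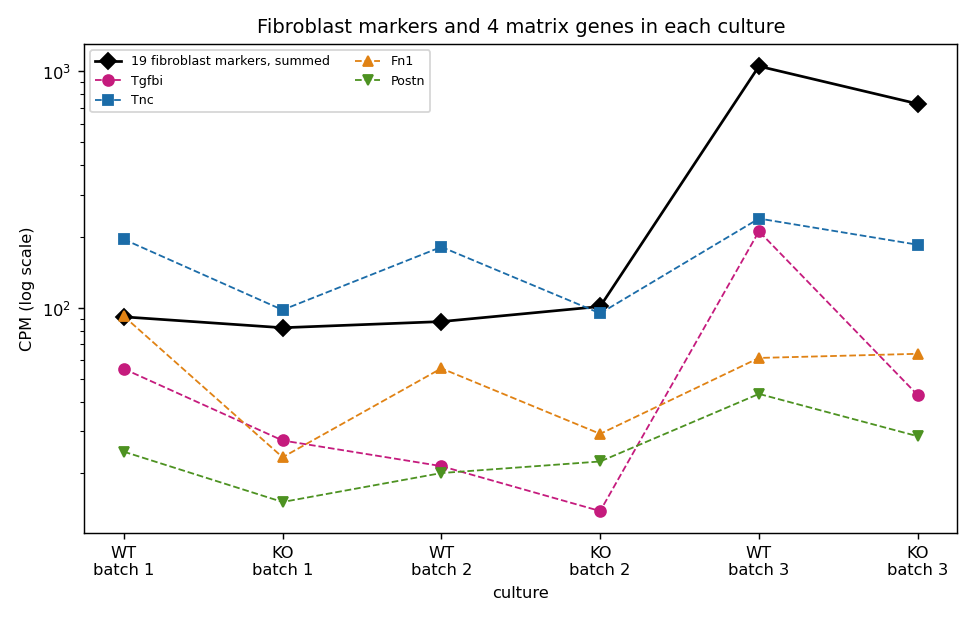
Summed level of 19 fibroblast marker genes (diamonds) and the levels of *Tgfbi*, *Tnc*, *Fn1* and *Postn* (CPM, log axis) in WT and KO of each batch, with lines only to guide the eye. The marker sum of batch 3 stands at 728 CPM in KO and 1050 CPM in WT, and the other 4 cultures lie between 82.4 and 101 CPM.

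The start regions of the members show which promoter letters the genes that fell share with those that did not pass the test. RefSeq promoters on GRCm38.p6 were matched for 6 of the 9 genes, and the 250 bases before each start were searched on both strands for 5 motifs. These were the AP1 site TGANTCA, the TATA box TATAAA, the CCAAT box CCAAT, the GC box GGGCGG and the TEAD site GGAATG. Among 32851 promoters cut to the same length, they were found in 6.75%, 12.4%, 33.8%, 32.7% and 12.6%. *Fn1*, *Thbs1* and *Plau* were not matched. Below are 2 genes that fell, *Tnc* and *Inhba*, and 2 that did not pass the test, *Postn* and *Plaur*, written 5′ to 3′ and ending at the base before the start, with motif matches in capitals.
Tnc (GRCm38.p6, chr4:64047016-64047265, minus strand): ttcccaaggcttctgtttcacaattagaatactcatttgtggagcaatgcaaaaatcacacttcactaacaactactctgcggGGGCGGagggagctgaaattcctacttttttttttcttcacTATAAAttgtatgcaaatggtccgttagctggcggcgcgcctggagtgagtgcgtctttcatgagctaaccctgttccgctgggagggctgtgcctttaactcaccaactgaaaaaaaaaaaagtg
Inhba (GRCm38.p6, chr13:16011601-16011850, plus strand): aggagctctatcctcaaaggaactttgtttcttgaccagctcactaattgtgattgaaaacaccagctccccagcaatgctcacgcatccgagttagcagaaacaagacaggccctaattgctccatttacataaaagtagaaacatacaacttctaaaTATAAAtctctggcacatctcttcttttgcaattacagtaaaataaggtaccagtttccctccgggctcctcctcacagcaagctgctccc
Postn (GRCm38.p6, chr3:54360857-54361106, plus strand): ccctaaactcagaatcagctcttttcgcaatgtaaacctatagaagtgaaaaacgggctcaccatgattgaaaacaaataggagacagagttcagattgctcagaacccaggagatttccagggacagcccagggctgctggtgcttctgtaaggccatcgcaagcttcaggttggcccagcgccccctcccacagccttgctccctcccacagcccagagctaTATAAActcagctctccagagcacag
Plaur (GRCm38.p6, chr7:24462233-24462482, plus strand): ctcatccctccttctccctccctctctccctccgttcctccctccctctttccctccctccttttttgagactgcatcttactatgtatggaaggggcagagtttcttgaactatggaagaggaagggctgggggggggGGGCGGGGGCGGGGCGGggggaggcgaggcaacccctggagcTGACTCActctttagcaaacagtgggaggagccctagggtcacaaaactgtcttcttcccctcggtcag
TATAAA was present in *Tnc* at -126, in *Inhba* at -91 and in *Postn* at -26 from the start, so both called and uncalled members held it. *Plaur* held the only AP1 match, TGACTCA at -69, and 3 GC boxes at -111, -105 and -100. *Tnc* had a GC box at -167, *Tgfbi*, which fell too, had 1 at -124 with no TATAAA, and *Itga5* had 2 on the reverse strand at -149 and -6. No CCAAT or GGAATG was found in these windows. The window of a second listed *Tnc* start overlaps the one shown, and a second window of *Postn* held none of the motifs. A match is a run of letters and not a measured binding site.

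*Thbs1* fell by a like amount in each batch. Thrombospondin-1 binds CD36, CD47 and integrins and can release TGF-β from its latent complex. Its gene lies on the plus strand of chromosome 2 from 118111876 to 118127133. The level was 669, 653 and 251 CPM in KO of batches 1 to 3 and 1492, 1310 and 536 CPM in WT. Both conditions were lowest in batch 3, which made the groups overlap, but in each batch the KO culture was at less than the WT level, by 2.23-, 2.01- and 2.13-fold. The means were 524 ± 237 CPM in KO and 1112 ± 508 CPM in WT (SD, n = 3), and the log2 fold change was -1.08 (SE 0.11, 95% confidence interval -1.32 to -0.85, adjusted p = 0.00109). The batch means differed by up to 2.72-fold, a wider range than the 2.12-fold decrease between conditions, which passed the test only with batch in the model. *Thbs1* ranked 15 by p among all tested genes. It was lowest in the batch with the highest fibroblast markers, and the part of fibroblasts in the value was not tested.

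*Tnc* fell less evenly. Tenascin-C is a large hexameric glycoprotein that appears at wound edges and weakens the grip of cells on fibronectin. Its gene lies on the minus strand of chromosome 4 from 63959785 to 64047015. The level was 97.9, 94.7 and 185 CPM in KO and 195, 181 and 238 CPM in WT. All KO cultures were below the WT culture of their batch, but KO of batch 3 was higher than WT of batch 2, so the groups overlapped. The decrease was 1.99-, 1.91- and 1.29-fold in batches 1 to 3, and the log2 fold change was -0.76 (SE 0.14, interval -1.07 to -0.45, adjusted p = 0.0166). It was smallest in batch 3, where the fibroblast markers were 1.44-fold higher in WT than in KO, and the part of those markers in the value was not tested. Without batch 1 the adjusted p was 0.0748, and without batch 2 it was 0.111, at log2 fold changes of -0.65 and -0.67.

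*Fn1* moved in 2 batches of 3. The gene is on the minus strand of chromosome 1 from 71585520 to 71653200. The level was 23.3, 29.3 and 63.9 CPM in KO and 92.2, 55.5 and 61.4 CPM in WT. In batch 1 KO was 3.94-fold and in batch 2 1.89-fold below WT, while in batch 3 the log2 difference was 0.06. The log2 fold change was -0.94 (SE 0.30, interval -1.60 to -0.28), with an unadjusted p of 0.0102 and an adjusted p of 0.128. The estimate was larger than that of *Tnc*, and so was its standard error. Without batch 3, the batch with the high fibroblast markers, the log2 fold change was -1.45 (adjusted p = 2.03e-17, with 1 batch fewer and all genes sharing the spread). With every gene of at least 1 count kept in the fit it was -0.93 (SE 0.155, adjusted p = 2.62e-07). The *Fn1* counts of the 3 batches were the same in that fit, so its smaller p does not come from closer agreement of the batches. Without batch 1 the log2 fold change was -0.42 (adjusted p = 0.50), and without batch 2 it was -0.95 (adjusted p = 0.281). DESeq2 and the robust dispersion of edgeR gave adjusted p-values of 0.387 and 0.433, and *Fn1* passed the test under none of the other alternatives.

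*Tgfbi* had the largest estimated decrease of the 9 genes and the widest range of batch means. The TGF-β-induced protein is a secreted integrin ligand whose transcription responds to TGF-β. Its gene lies on the plus strand of chromosome 13 from 56609523 to 56639562. The level was 27.5, 13.8 and 42.7 CPM in KO and 55.2, 21.4 and 211 CPM in WT. WT of batch 3 stood far above the other 5 cultures, while KO of batch 3 lay below WT of batch 1. The decrease was 2.01-, 1.54- and 4.92-fold in batches 1 to 3, and the log2 fold change was -1.33 (SE 0.26, interval -1.92 to -0.74, adjusted p = 0.0224), a 2.52-fold decrease. In the same batch 3 cultures the summed fibroblast markers differed by 1.44-fold, and in batches 1 and 2, where those markers were at 82.4 to 101 CPM, the gene was lower in KO as well. The part of the fibroblast markers in the value was not tested. Without batch 3 the log2 fold change was -0.83 (adjusted p = 0.00028, with 1 batch fewer and all genes sharing the spread). DESeq2 gave -1.30 with an adjusted p of 0.0888, and the robust dispersion of edgeR gave an adjusted p of 0.138.

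*Postn* was the matricellular member that did not pass the test. Periostin is secreted mainly by fibroblasts and binds matrix proteins such as collagen. The gene is on the plus strand of chromosome 3 from 54361109 to 54391037. The level was 15.1, 22.4 and 28.6 CPM in KO and 24.6, 20.0 and 43.2 CPM in WT. It was lower in KO in batches 1 and 3 and not in batch 2, and the groups overlapped. The log2 fold change was -0.38 (SE 0.20, interval -0.82 to 0.05, adjusted p = 0.372). Both cultures of batch 3 were the highest of their condition, as the fibroblast markers were.

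*Inhba* was the member outside the matrix that fell. Activin A, a dimer of its product, is released by keratinocytes at wound margins and is held by follistatin. The gene is on the plus strand of chromosome 13 from 16011851 to 16031621. The level was 120.1, 129 and 67.9 CPM in KO and 168, 201 and 98.3 CPM in WT. Each KO culture was below its WT partner, by 1.40-, 1.56- and 1.45-fold, and WT of batch 3 was below KO of batches 1 and 2. The log2 fold change was -0.55 (SE 0.11, interval -0.80 to -0.31, adjusted p = 0.0229). The call was lost without batch 1 (adjusted p = 0.0816) and without batch 2 (adjusted p = 0.197), with log2 fold changes of -0.58 and -0.50. Of the 42-base windows of its transcript, 1.07% also occur in transcripts of other genes, against none for 7 of the other members and 0.043% for *Plau*.

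The protease gene *Plau* had the narrowest spread over the cultures. It lies on the plus strand of chromosome 14 from 20836660 to 20843385. The level was 701, 728 and 492 CPM in KO and 648, 656 and 485 CPM in WT. KO was the higher culture in each batch, by 1.08-, 1.11- and 1.02-fold, while 19.5% of all tested genes were higher in KO in every batch. The log2 fold change was 0.10 (SE 0.11, interval -0.14 to 0.33, adjusted p = 0.736).

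The urokinase receptor gene *Plaur*, on the plus strand of chromosome 7 from 24462484 to 24475968, had levels of 41.8, 64.6 and 29.0 CPM in KO and 42.1, 98.5 and 25.5 CPM in WT. KO was 1.52-fold below WT in batch 2, and the log2 differences were -0.01 and 0.18 in batches 1 and 3. The log2 fold change was -0.15 (SE 0.16, interval -0.52 to 0.21, adjusted p = 0.732), and without batch 2 it was 0.09. *Itga5*, on the minus strand of chromosome 15 from 103344286 to 103366763, had levels of 21.5, 18.5 and 15.9 CPM in KO and 20.2, 24.7 and 14.3 CPM in WT. Its log2 fold change was -0.06 (SE 0.19, interval -0.48 to 0.36, adjusted p = 0.915), and without batch 2 it was 0.12. For both genes KO and WT levels overlapped and the sign rested on 1 batch.

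**Figure D2:**
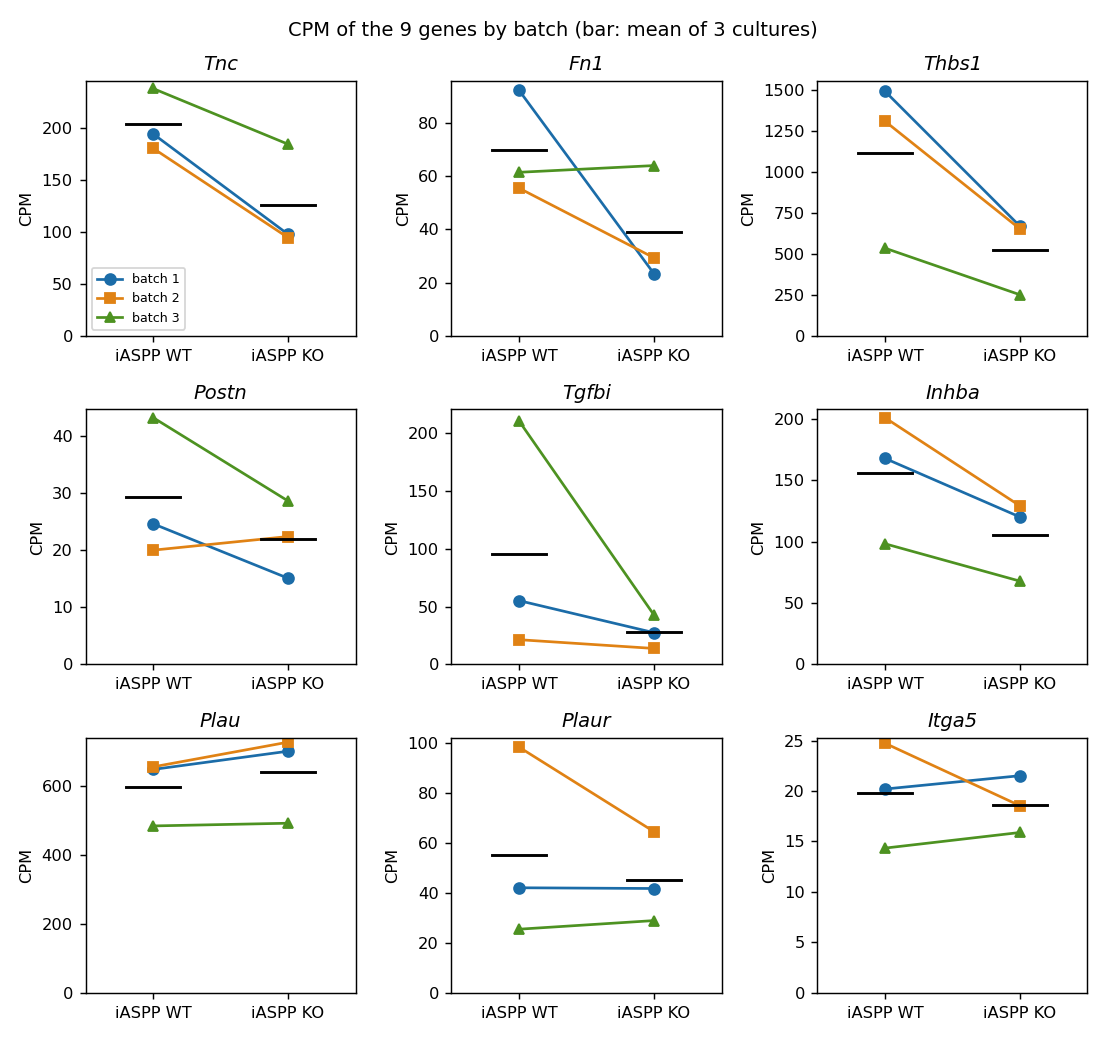
Level of each of the 9 genes (CPM, linear axis from 0, scaled for each gene) in WT and KO, with coloured lines joining cultures of the same batch and black bars for the mean of 3 cultures. *Thbs1*, *Tnc*, *Tgfbi* and *Inhba* fall from WT to KO in every batch, and the KO and WT values of each of the 9 genes overlap across batches.

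**Figure D3:**
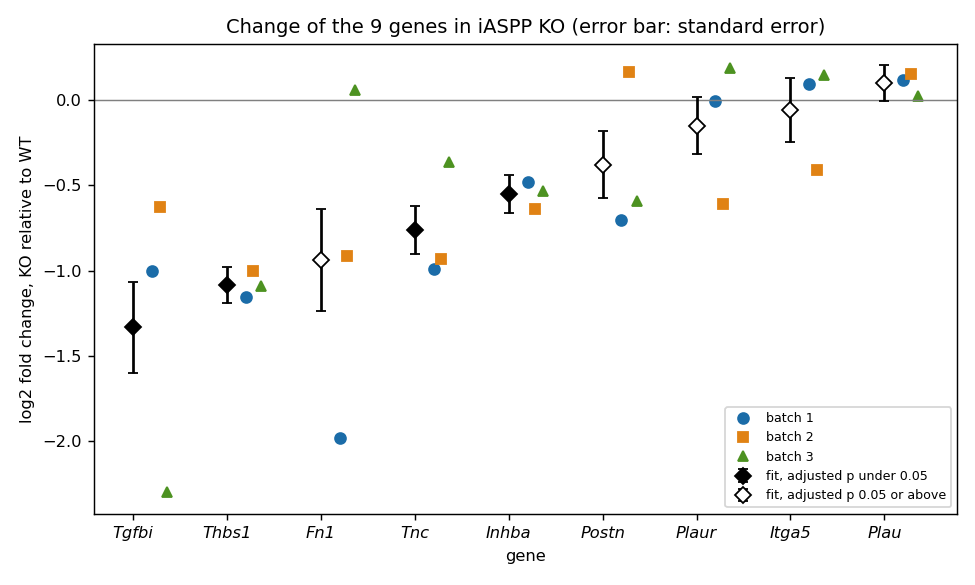
Log2 fold change (KO minus WT) of each member, with the edgeR estimate as a diamond (filled where the adjusted p was under 0.05), its standard error as a bar and the 3 within-batch differences as coloured points. *Fn1* in batch 1 at -1.98 and in batch 3 at 0.06 and *Tgfbi* in batch 3 at -2.30 lie far from their estimates, and the 3 points of *Thbs1* lie close together, with the lowest at -1.16.

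For all 9 members the KO and WT values overlapped across batches. They were separate for only 10.7% of all tested genes (5.46% lower and 5.26% higher in KO), so overlap does not set the members apart. The 4 called members were lower in KO in every batch and *Plau* was higher in every batch, while 39.3% of all tested genes kept 1 direction in the 3 batches, with 19.7% lower throughout. Without the batch term in the model none of the 4 passed (adjusted p = 0.973 for each), with log2 fold changes of -1.08 for *Thbs1*, -0.70 for *Tnc*, -1.77 for *Tgfbi* and -0.56 for *Inhba*. The batches differed in opposite ways. *Tnc*, *Fn1*, *Postn* and *Tgfbi* had their highest batch mean of log2 CPM in batch 3, and *Thbs1*, *Inhba*, *Plau*, *Plaur* and *Itga5* their lowest. The fold range of the batch means was widest for *Tgfbi*, at 5.49, and narrowest for *Plau*, at 1.41, and *Itga5*, at 1.42.

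Levels of different genes were compared per length, as TPM (counts per kilobase of exon, scaled to the same sum in each library) computed from the counts and the exon lengths in the deposited table. In WT, *Plau* was at 355 ± 39.4 TPM and *Thbs1* at 256 ± 110.4 TPM. These 2 did not differ beyond their spread, and both stood above the rest. *Tgfbi* at 38.1 ± 41.9 TPM, *Tnc* at 37.7 ± 8.66 TPM, *Inhba* at 34.0 ± 9.10 TPM and *Plaur* at 28.9 ± 17.6 TPM followed, within their spread of each other. *Fn1* at 8.51 ± 2.62 TPM, *Itga5* at 5.61 ± 1.03 TPM and *Postn* at 4.89 ± 2.44 TPM (SD, n = 3) were the lowest, and neighbours in that order did not differ beyond their spread. In KO, *Plau* at 312 ± 79.4 TPM stood above *Thbs1* at 99.1 ± 46.5 TPM by more than their spread. The order there went on with *Plaur* at 20.3 ± 10.3, *Inhba* at 19.1 ± 6.93, *Tnc* at 18.7 ± 7.91, *Tgfbi* at 8.40 ± 4.32, *Itga5* at 4.32 ± 0.564, *Fn1* at 3.86 ± 2.24 and *Postn* at 2.96 ± 1.09 TPM. TPM values serve here to order genes within a condition, since on this scale the median tested gene was itself shifted between KO and WT, by log2 differences of -0.50, 0.00 and -0.38 in batches 1 to 3. *Plau*, for example, was lower in KO by mean TPM and higher by TMM-scaled CPM.

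**Figure D4:**
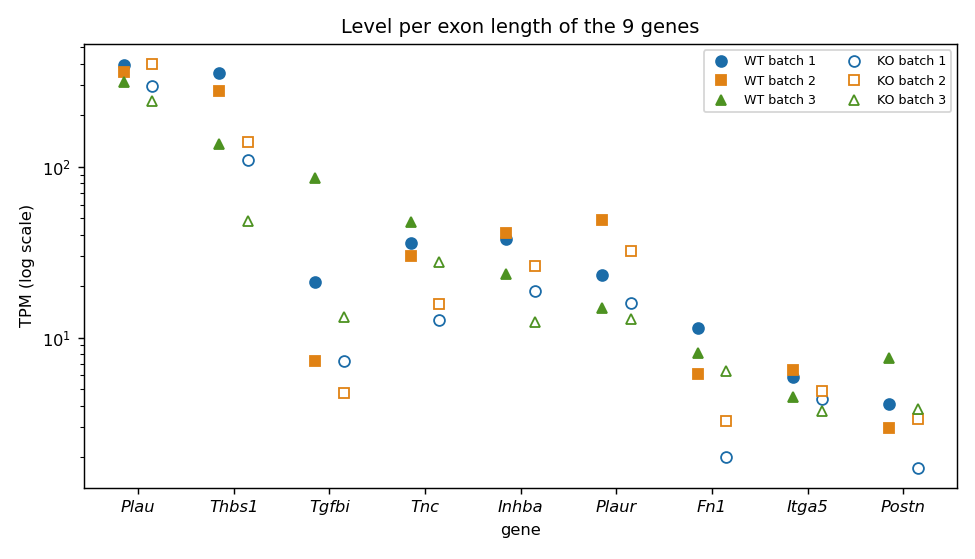
Level per exon length (TPM, log axis) of the 9 genes in each culture, filled for WT and open for KO, ordered by the WT mean. *Plau* and *Thbs1* lie above the other members in every culture, and *Fn1*, *Itga5* and *Postn* lie lowest in WT.

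In the edgeR fit with batch, none of the 16 tested ligands and binding proteins of the TGF-β family passed (median log2 fold change -0.12), with 1 higher and 1 lower at an unadjusted p under 0.05. DESeq2 called 1 of them higher and 1 lower. None of 21 receptors and SMAD proteins passed in edgeR (median -0.08, 1 higher and 0 lower unadjusted) or in DESeq2. Some were picked by role after their values were seen. Follistatin (*Fst*), which binds activin, was at 397 ± 100.3 CPM in KO and 408 ± 135 CPM in WT, with a log2 fold change of -0.02 (adjusted p = 0.954). *Tgfb1*, the ligand that *Tgfbi* is named after, was at 3.87 ± 1.44 CPM in KO and 2.72 ± 1.66 CPM in WT (0.59, SE 0.50, adjusted p = 0.638). *Tgfbr2*, the type II receptor, was at 0.16 (adjusted p = 0.541). *Ltbp1*, which tethers latent TGF-β to fibronectin-rich matrix, was at -0.62 (adjusted p = 0.0521).

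Of 11 tested genes of the plasminogen system none was called by edgeR (median 0.07, 0 higher and 1 lower unadjusted) or by DESeq2. By role, the urokinase inhibitor *Serpinb2* had a log2 fold change of -0.29 (adjusted p = 0.501), and the tissue activator *Plat* was at 0.15 (adjusted p = 0.65). As with *Plau* and *Plaur*, these values were within the spread of the cultures.

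Among 17 other integrin subunits, 1 rose and none fell in edgeR (median -0.16, 3 lower unadjusted), while DESeq2 called 1 lower. The 1 that rose was *Itgb7*, a subunit known from lymphocytes, at 20.1 ± 14.6 CPM in KO and 9.49 ± 8.55 CPM in WT (log2 fold change 1.23, adjusted p = 0.0163). Of 5 tested leukocyte markers 1 was called, the macrophage marker *Csf1r*, which rose too (1.11, adjusted p = 0.0206). The summed leukocyte markers were highest in batch 3, at 76.0 CPM in KO and 58.1 CPM in WT. In that batch *Itgb7* was lowest, at 3.91 CPM in KO and 1.38 CPM in WT. The part of leukocytes in *Itgb7* was not tested. *Itgb1*, the partner of *Itga5*, was at 484 ± 44.4 CPM in KO and 600.1 ± 92.9 CPM in WT, with a log2 fold change of -0.30 (adjusted p = 0.236).

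Of 20 genes of focal adhesions, the structures through which integrins hold actin, 3 fell and none rose, also with none higher at an unadjusted p under 0.05 or in DESeq2. *Zyx*, encoding zyxin, an adaptor of mature adhesions, was at 39.8 ± 5.84 CPM in KO and 69.2 ± 6.05 CPM in WT (-0.81, adjusted p = 0.00837). *Flna*, which cross-links actin, was at 1309 ± 161 CPM in KO and 1881 ± 227 CPM in WT (-0.52, adjusted p = 0.0274). *Ilk*, the integrin-linked kinase, was at -0.76 (adjusted p = 0.0480). Of the 20, 17 had a log2 fold change below 0, with a median of -0.31, and 10 were lower in every batch, against 19.7% of all tested genes.

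Of 31 other matrix and matricellular genes tested, 2 rose and none fell in edgeR, and the median was 0.15. At an unadjusted p under 0.05, 2 were lower, and DESeq2 called 2 lower. Both that rose belong to the insulin-like growth factor binding proteins. *Igfbp3* was at 157 ± 27.4 CPM in KO and 94.8 ± 22.8 CPM in WT (0.74, adjusted p = 0.00818), and *Igfbp7* at 31.4 ± 13.2 CPM and 16.7 ± 3.24 CPM (0.84, adjusted p = 0.0339). *Ccn2*, a matricellular gene picked by role, was at -0.75 (adjusted p = 0.0679).

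Of 24 genes known from migrating keratinocytes, 2 rose and 2 fell. *Pdpn* (podoplanin, a membrane protein of wound-edge cells) rose from 18.1 ± 8.06 CPM in WT to 51.3 ± 30.0 CPM in KO (1.47, adjusted p = 0.00267), and *Mmp10* (a stromelysin) from 6.10 ± 2.18 to 17.8 ± 8.97 CPM (1.49, adjusted p = 0.0119). *Fscn1* (the actin-bundling protein fascin) fell by 0.76 (adjusted p = 0.0213) and *Krt17* (a keratin of activated epidermis) by 0.57 (adjusted p = 0.0470) on the log2 scale. Over the 7 lists, 10 of 139 tested genes were called, 5 in each direction, which is 7.19% beside 4.12% of all tested genes.

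**Figure D5:**
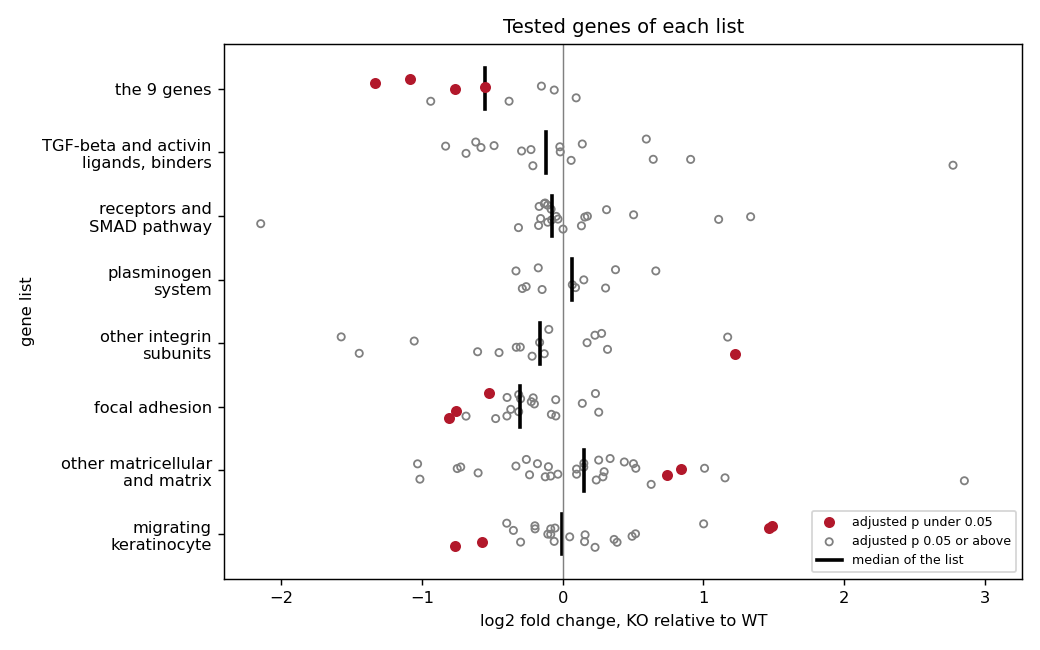
Log2 fold change (KO minus WT) of the tested genes in the member set and in the 7 lists of related genes, with called genes filled in red and list medians as black bars. The focal adhesion list has a median of -0.31 and the matrix list one of 0.15, beside -0.55 for the members.

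The member profiles over the 6 libraries were compared by the root mean square difference of log2 CPM, each gene centred on its own mean. The closest pairs of members were *Plau* with *Itga5* (0.17), *Tnc* with *Fn1* (0.32) and *Inhba* with *Itga5* (0.33), and the most distant were *Tgfbi* and *Plaur* (1.81). Among 8766 other genes, the profile most like that of *Tgfbi* was that of *Itgb8*, an integrin subunit (0.31). *Tnc* was nearest to *Rnf34* (0.10), *Inhba* to *Nf1* (0.13), *Fn1* to *Chaf1a* (0.22), *Postn* to *Gemin6* (0.07), *Plaur* to *Prag1* (0.23), *Itga5* to *Polr1a* (0.06) and *Plau* to *Inf2* (0.03). Genes with little change, such as *Plau*, lie close to many others on this measure. All values share the same 6 libraries.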

How the data were processed

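RNA of 6 primary keratinocyte cultures, 3 iASPP KO and 3 iASPP WT in 3 batches, was ribodepleted and sequenced as single reads of 42 nt. The authors trimmed adapters (Cutadapt 2.10), aligned reads to mm10 (STAR 2.7.3) and deposited raw counts per gene name on exons of the sense strand (featureCounts 2.0.0, GENCODE vM25). A deposited table of the authors' own comparison was not used. The tamoxifen dose is 1 mM in the labels and micromolar in the study's methods.

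The test of these counts was the edgeR 4.0.16 quasi-likelihood F-test under R 4.3.3 (genes kept by filterByExpr, grouped by condition, TMM, glmQLFit and glmQLFTest with batch and condition, Benjamini-Hochberg over 14916 genes, threshold 0.05). Genes had a common dispersion of 0.0627 and degrees of freedom of 2 (residual) and 8.17 (prior). SE is the absolute log2 fold change divided by the square root of F. CPM are TMM-scaled, and within-batch differences use log2 CPM with a prior count of 2. An exact sign-flip test over 3 pairs cannot go below p = 0.25. Molecules were not tagged, so depth covers counting error only. Libraries of 1 condition differed beyond sampling noise (chi-square per gene 39.7 to 173).

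The batch numbers come from the labels, and batches were split between conditions. Deviations of same-batch cultures correlated at 0.603, 0.707 and 0.771 over 8775 genes, and those of other pairs at -0.671 to 0.311.

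The members and lists were chosen with earlier results of these data known. Named besides the members were the called genes of each list, the closest profile of each member (that of *Thbs1* is not reported here) and genes said to be picked by role. DESeq2 1.42.0, other scalings and filters, robust dispersion, no batch term and each batch left out were tried as alternatives. The DESeq2 fit also kept every gene with at least 1 count, 31932 in all, so it differs from the main fit in the genes tested as well as in method. Gene positions are those of the deposited table, shared read windows come from GENCODE vM21 transcripts, and promoters from RefSeq. The steps were tested on simulated data with 200 genes set to a log2 fold change of 1.5 in size. The edgeR fit with batch called 64.5% of them, and 1.5% of its calls were false. A gene that was not called is thus not shown to be unchanged.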

Additional observations from a re-analysis of the deposited data

How the results depend on the processing

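Of the 9 members and *Ppp1r13l*, all 10 kept direction and side of the threshold under upper-quartile scaling, DESeq2 size factors in edgeR and a minimum of 10 counts in every library. Under DESeq2 and under robust dispersion 9 of 10 did, the exception being *Tgfbi* (log2 fold change -1.30 and -1.33). With no filter beyond 1 count the exception was *Fn1* (-0.93, then called, at an SE of 0.155 where the main fit had 0.298).

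Without the replicate block, which ignores that the cultures are paired by batch, the adjusted p was 0.973 for each of *Thbs1* (-1.08), *Tnc* (-0.70), *Tgfbi* (-1.77), *Inhba* (-0.56) and *Ppp1r13l* (-1.38). No member, no list gene and 0 genes in either direction were then called by edgeR, with 360 higher and 331 lower at an unadjusted p under 0.05.

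With 1 batch left out, log2 fold changes ran from -1.12 to -1.04 for *Thbs1*, -0.96 to -0.65 for *Tnc*, -1.66 to -0.83 for *Tgfbi*, -0.58 to -0.50 for *Inhba* and -1.45 to -0.42 for *Fn1*. *Plaur* ran from -0.32 to 0.090 and *Itga5* from -0.16 to 0.12, both turning without batch 2. The number of members called lower was 2 without batch 1, 2 without batch 2 and 5 without batch 3. Calls over all genes ran from 169 to 793 higher and from 117 to 662 lower, the highest being without batch 3. Over the 7 lists they ran from 3 to 11 higher and from 0 to 13 lower, the 0 being without batch 2. The cause was not tested, beyond fewer cultures in each fit.

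With no filter beyond 1 count, 624 genes were higher and 491 lower, and in the lists 11 were higher and 12 lower. DESeq2, with 147 list genes tested where the main fit had 139, called 9 list genes higher and 12 lower, and robust dispersion called 8 lower. Among the ligands and binding proteins of the TGF-β family, 1 gene was called lower under both of these, both other scalings, both other filters and without batch 3. Among the other matrix genes 1 or 2 were called lower under the same alternatives. The lowest count of a member was 308, so counts of 0 limited none of the members' values.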
